A study of Mus musculus with 14 samples.

Results

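The Gimap genes encode GTPases of immunity-associated proteins and lie side by side in a block of 123666 bp on mouse chromosome 6 (GRCm38, chr6:48647186-48770851). The data describe how open the chromatin of this block was in 2 states of Foxp3+ regulatory T cells, central Tregs (cTregs) and effector Tregs (eTregs), with and without Atg14, a subunit of the Vps34 lipid kinase complex that starts autophagy. A region was taken as a Gimap region when its nearest protein-coding start was that of Gimap1, Gimap3, Gimap4, Gimap5, Gimap6, Gimap7, Gimap8 or Gimap9, or when its centre lay in the body of 1 of these genes. This rule took 33 of the 67254 regions, and 32 of them were among the 61366 regions tested. The region centred 11383 bp before the Gimap9 start was too low to be tested (mean count of 6.29 per library).

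Accessibility was measured by bulk ATAC-seq, in which a transposase cuts open DNA, so that a higher count marks a more open region. Control BM carried the Cre recombinase under the Foxp3 promoter with a single floxed Atg14 allele (Foxp3Cre Atg14+/fl), and Atg14-deficient BM carried Foxp3Cre with both alleles floxed (Atg14fl/fl). Both were CD45.2+ and were mixed in equal parts with wild-type CD45.1+ BM to reconstitute sublethally irradiated Rag1-/- hosts, which have no T or B cells of their own, for 6 to 8 weeks. Splenic CD45.2+CD4+Foxp3-YFP+ cells were sorted by surface markers, among them CD44 (lower in cTregs, higher in eTregs), into both states from control (n = 3) and Atg14-deficient (n = 4) chimeras, which gave 14 libraries. All 4 groups thus carried Cre, the YFP reporter and at least 1 floxed allele, and the controls had 1 intact allele of Atg14.

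GIMAP proteins bind and in some cases hydrolyse GTP, and most sit on membranes of the ER, Golgi, lysosomes or mitochondria of lymphocytes. Many are abundant in resting T cells, and several of them are needed for naive and other quiescent lymphocytes to survive in the periphery. Gimap5 is the best known, since its loss leaves mice and rats with few peripheral T cells.

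The following sequences are those of regions to which the results return. The first 3 are the central 200 bp of the regions in which control eTregs fell furthest below control cTregs among those past the adjusted threshold, the fourth is the centre of the region with the highest count, and the last 3 are the 250 bp before the starts of Gimap7 and Gimap3, where the region over the start passed the adjusted threshold between the states of controls, and of Gimap5, where it had the smallest adjusted p of the block between genotypes in eTregs without passing. Capitals mark a match to a RUNX (TGTGGTT) or FOXO (GTAAACA) motif on either strand. All are RefSeq's reference sequence of GRCm38.p6, with positions counted from 1, on the plus strand except the Gimap3 promoter, which is on the minus strand as the gene is.
Gimap7, 9368 bp beyond the start (chr6:48727890-48728089): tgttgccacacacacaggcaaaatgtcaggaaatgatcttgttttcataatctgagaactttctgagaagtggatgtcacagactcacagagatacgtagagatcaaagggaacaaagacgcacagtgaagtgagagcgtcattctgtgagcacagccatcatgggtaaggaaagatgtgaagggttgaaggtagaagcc
Gimap6, 1855 bp into the gene (chr6:48706290-48706489): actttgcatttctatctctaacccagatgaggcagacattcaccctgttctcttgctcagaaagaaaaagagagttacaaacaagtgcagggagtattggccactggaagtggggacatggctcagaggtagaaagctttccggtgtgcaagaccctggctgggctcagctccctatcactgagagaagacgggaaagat
Gimap3, 1918 bp into the gene (chr6:48768834-48769033): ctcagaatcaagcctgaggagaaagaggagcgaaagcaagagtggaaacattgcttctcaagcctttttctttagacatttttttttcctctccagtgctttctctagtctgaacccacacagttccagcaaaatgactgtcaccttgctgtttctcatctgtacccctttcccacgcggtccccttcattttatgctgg
Gimap1, 6000 bp before the start (chr6:48732948-48733147): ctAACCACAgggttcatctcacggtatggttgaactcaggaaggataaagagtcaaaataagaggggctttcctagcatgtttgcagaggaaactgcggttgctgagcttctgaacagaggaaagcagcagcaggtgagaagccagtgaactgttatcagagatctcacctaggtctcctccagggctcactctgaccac
Gimap7 promoter (chr6:48718371-48718620): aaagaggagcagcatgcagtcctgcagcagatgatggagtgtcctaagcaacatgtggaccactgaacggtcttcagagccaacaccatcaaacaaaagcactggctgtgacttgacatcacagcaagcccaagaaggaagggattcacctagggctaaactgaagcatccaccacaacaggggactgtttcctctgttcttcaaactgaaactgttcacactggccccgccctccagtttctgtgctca
Gimap3 promoter (chr6:48770852-48771101): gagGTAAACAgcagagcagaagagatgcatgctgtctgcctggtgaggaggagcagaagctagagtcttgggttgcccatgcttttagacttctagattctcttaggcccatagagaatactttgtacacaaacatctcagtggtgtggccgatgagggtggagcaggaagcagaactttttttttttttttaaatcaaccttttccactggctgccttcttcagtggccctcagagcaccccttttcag
Gimap5 promoter (chr6:48745947-48746196): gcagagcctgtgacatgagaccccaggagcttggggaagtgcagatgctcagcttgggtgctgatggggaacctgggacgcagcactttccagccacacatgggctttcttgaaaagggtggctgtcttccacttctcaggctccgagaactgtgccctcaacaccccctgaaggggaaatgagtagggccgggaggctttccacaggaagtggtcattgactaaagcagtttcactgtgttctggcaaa

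The motifs searched by their letters on both strands were AP-1 (TGANTCA), RUNX, ETS (CCGGAAG), TCF/LEF (TTCAAAG), FOXO and KLF (GGGTGTGG), of which the KLF and RUNX letters can overlap. In the central 200 bp of the 32 tested Gimap regions, RUNX was found in 7 regions, against 10.0% of all regions, AP-1 in 3 against 11.5%, KLF in 3 against 3.00% and TCF/LEF in 2 against 5.07%. ETS (4.72% of all regions) and FOXO (3.03%) had no match there. In the 9 promoter windows that RefSeq gives for the 8 genes, the 1 match was FOXO in the Gimap3 window, and 3.16% of 32817 promoter windows of this length hold those letters. No run of 50 bases in any of the 33 regions recurred exactly within the block or the 50000 bp on either side. Near matches, shorter runs and the rest of the genome were not searched, so this does not show that every read was placed uniquely.

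The 8 genes run from Gimap8 through Gimap9, Gimap4, Gimap6, Gimap7, Gimap1 and Gimap5 to Gimap3, with Gimap6 and Gimap3 on the minus strand. By their centres, 23 of the 33 regions were intergenic, 7 intronic, 2 in a noncoding exon and 1 in a coding exon. For each gene, 1 region covered the start. Per kb of region, accessibility was highest from the Gimap7 start to 6000 bp before Gimap1. In control cTregs the Gimap7 start region reached 107 ± 2.13 CPM per kb (SD, n = 3), and the region over the Gimap8 start 41.1 ± 10.1 CPM per kb. CPM here is the count divided by the total of its library and scaled to a total of 1000000.

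**Figure D1:**
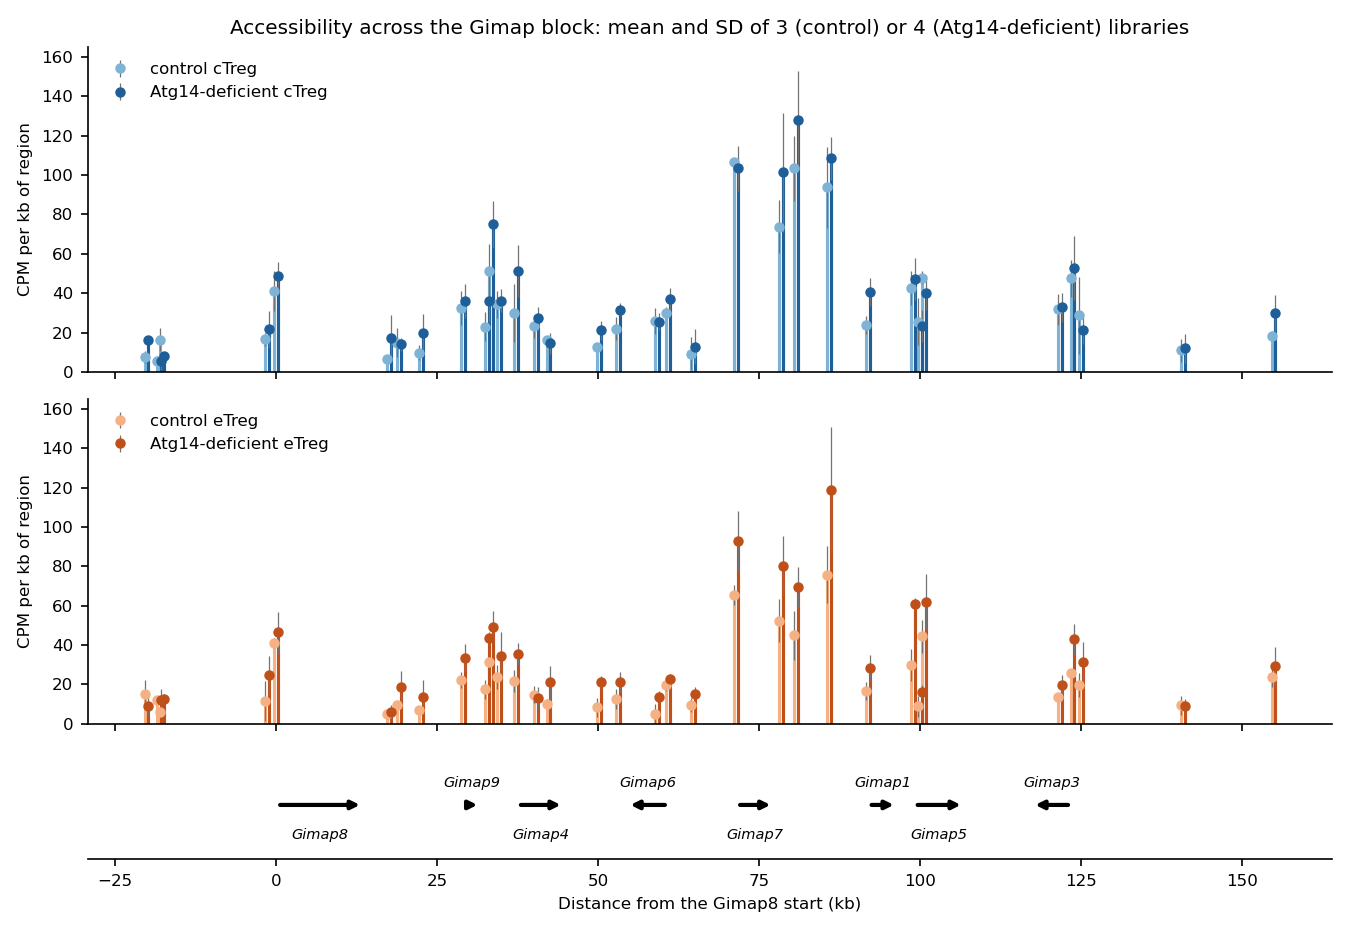
Mean scaled count (CPM) per kb of each of the 33 regions (y axis) against its distance in kb from the Gimap8 start (x axis), for cTregs (top) and eTregs (middle), with error bars of 1 SD over 3 control or 4 Atg14-deficient libraries and arrows for the genes (bottom). The highest values stand between the Gimap7 start and the region 6000 bp before Gimap1, where control eTregs (light orange) lie below Atg14-deficient eTregs (dark orange).

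Summed over the 33 regions, the block held 511, 439 and 441 CPM in the 3 control cTreg libraries, and 283, 329 and 314 CPM in the 3 control eTreg libraries. The 4 Atg14-deficient cTreg libraries held 603, 521, 557 and 504 CPM, and the 4 Atg14-deficient eTreg libraries 448, 469, 467 and 504 CPM. Control eTregs were the low group, with every library below every other library of the 14. Their mean was 308 ± 23.6 CPM (SD, n = 3), against 464 ± 40.9 CPM (SD, n = 3) in control cTregs, 472 ± 23.4 CPM (SD, n = 4) in eTregs without Atg14 and 546 ± 43.9 CPM (SD, n = 4) in cTregs without Atg14. The ratio of means was 0.665 for control eTregs to control cTregs and 1.53 for Atg14-deficient to control eTregs. The ratio was 0.865 between states in Atg14-deficient cells and 1.18 between genotypes in cTregs, and in both of these the libraries overlapped. Between the states without Atg14 the overlap was narrow, with 504.3 CPM in the lowest cTreg and 504.4 CPM in the highest eTreg library, and the 8 regions covering a start alone (ratio of 0.862) did not overlap. These sums are given without a test. The comparison of states in controls and the comparison of genotypes in eTregs use the same 3 control eTreg libraries, so a low value in those libraries enters both.

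**Figure D2:**
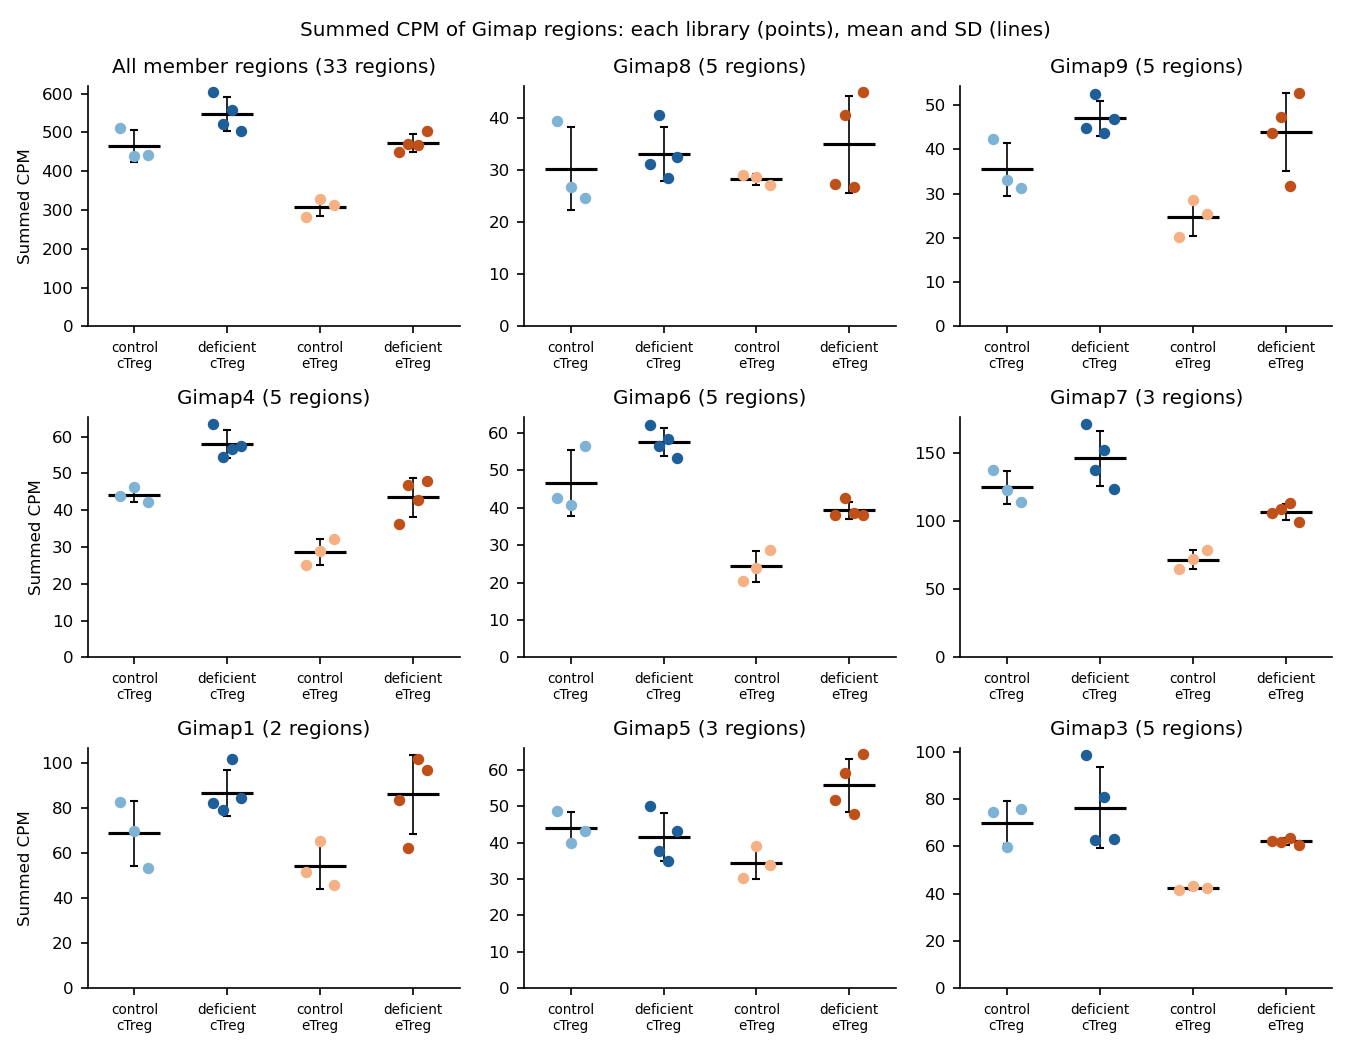
Summed CPM (y axis) of all 33 Gimap regions and of the regions nearest each gene, in each library (points) of the 4 groups (x axis), with the mean and 1 SD as black lines. For all regions the control eTreg libraries lie between 283 and 329 CPM, below all other libraries, and the Atg14-deficient eTreg libraries between 449 and 504 CPM.

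Total counts ran from 2242983 to 5548189 per library. The region nearest Foxp3, the defining transcription factor of Tregs, had a value above 0 in every library (7.53 to 26.7 CPM), and so had the region nearest Cd4 (16.1 to 47.1 CPM). The promoter regions of the cTreg markers Ccr7, Tcf7 and Satb1 summed to 59.3 CPM in control cTregs and 21.0 CPM in control eTregs, in the direction of the labels. Those of the eTreg markers Icos, Tigit, Prdm1 and Klrg1 overlapped between the states in their sum (175 and 169 CPM). Of these, the Icos promoter went against the labels without overlap, with 29.3 to 36.1 CPM in control cTregs and 16.2 to 22.1 CPM in control eTregs, and the low Klrg1 promoter had means of 0.801 and 2.79 CPM. Lef1 and Cd44 had no region centred in their promoter window, and neither had any of the 5 myeloid markers or 4 of the 5 B cell markers. The 5 regions nearest Atg14 lay between 68.4 and 86.6 CPM in all libraries and overlapped between genotypes, and region counts do not show the deleted exons.

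Between the states of control cells, the regions that passed the adjusted threshold were all less accessible in eTregs than in cTregs. The log2 fold change lay below 0 in 28 of the 32 tested regions, with a median of -0.52 against -0.01 over all tested regions. In all, 5 regions fell past the adjusted threshold (edgeR quasi-likelihood test, Benjamini-Hochberg adjusted p under 0.05 over all tested regions and a log2 fold change beyond 0.5), and 0 rose. A fall of this kind was called in 3.29% of all tested regions and a rise in 2.01%. At an unadjusted p under 0.05 with the same fold, 10 Gimap regions lay lower and 0 higher, against 10.4% of all tested regions lower and 7.76% higher. In 9 regions all control eTreg libraries lay below all control cTreg libraries, a separation found in 13.9% of all tested regions. In 1 low region, 18172 bp before Gimap8, all control eTreg libraries lay above (12.2% of all tested regions). The 5 called regions were in the Gimap6 intron, over the Gimap7 start, beyond the Gimap7 gene, in the Gimap3 intron and over the Gimap3 start. Without replicate 1 of control cTregs or of control eTregs, 3 were called. Bulk counts cannot tell fewer cells with an open region from less access per cell.

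Markers of other cells and states moved with the comparison of states as well. Of the 5 CD8 and NK cell markers, Cd8a, Ncr1 and Eomes had no promoter region. The Cd8b1 promoter had a mean of 16.1 CPM in control cTregs and 4.35 CPM in control eTregs, and of 16.3 and 4.94 CPM without Atg14, without overlap in either genotype. The low promoter of the NK cell marker Klrb1c went the other way, from 0.964 to 1.98 CPM in controls and from 1.26 to 3.31 CPM without Atg14, with overlap. The Cd22 promoter, the 1 B cell marker region, went from a mean of 0.968 CPM in control cTregs to 2.66 CPM in control eTregs, with every eTreg library above. The cTreg marker promoters had ratios of 0.354 in control and 0.552 in Atg14-deficient cells, both without overlap. Among the Treg markers, the Ikzf2 promoter went from 48.7 CPM in control cTregs to 34.6 CPM in control eTregs and that of Ctla4 from 51.0 to 34.8 CPM, both without overlap, while that of Il2ra overlapped (14.1 and 15.2 CPM). Without Atg14 the Ctla4 promoter went from 58.9 to 37.2 CPM without overlap, while those of Ikzf2 (51.7 and 49.0 CPM) and Il2ra (20.6 and 18.1 CPM) overlapped. The Treg marker promoters together had a ratio of 0.796 there, without overlap. Those of the eTreg markers overlapped in their sum (ratio of 1.03), though Icos alone went from 38.8 to 22.9 CPM without overlap. The part of these markers in the Gimap values was not tested.

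The largest of these falls in number of reads was in the intergenic region 9368 bp beyond the Gimap7 start (chr6:48727774-48728204), whose centre is printed above. It held 52.8, 40.9 and 40.1 CPM in the control cTreg libraries and 13.7, 24.1 and 20.2 CPM in the control eTreg libraries. Every control eTreg library lay far below every control cTreg library, with a log2 fold change of -1.20 (SE 0.21) and an adjusted p of 0.00120 by edgeR. The same region also fell in Atg14-deficient cells, from 63.8, 58.0, 59.4 and 39.5 CPM in cTregs to 29.4, 36.0, 28.6 and 25.7 CPM in eTregs. There too the states did not overlap, and the log2 fold change was -0.89 (SE 0.18) (adjusted p = 0.00224, edgeR).

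In Atg14-deficient cells the difference between the states was smaller in the median of the block. Values below 0 were found in 20 of 32 regions, with a median of -0.13 against 0.02 over all tested regions. In all, 3 regions fell past the adjusted threshold and 0 rose, against 5.40% falling and 4.41% rising among all tested regions. At the unadjusted threshold 7 lay lower, against 11.8% of all tested regions, and 1 lay higher, against 11.4%. In 9 regions all Atg14-deficient eTreg libraries lay below all Atg14-deficient cTreg libraries, against 8.38% of all tested regions, and in 0 they lay above, against 7.13%. The 3 called regions were the Gimap7 region just described, the Gimap3 intron and the region over the Gimap6 start. Leaving out any 1 of 5 of these 8 libraries (cTreg replicate 1, 2 or 3, or eTreg replicate 1 or 4) left 1 call, the Gimap7 region. Without eTreg replicate 3, 2 regions were called, the Gimap7 region and a rise 1593 bp into Gimap5. With the replicate number within each genotype as a block, 5 regions fell and 1 rose past the adjusted threshold. That fit called 9495 of all tested regions in either direction, against 6021 in the main fit.

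**Figure D3:**
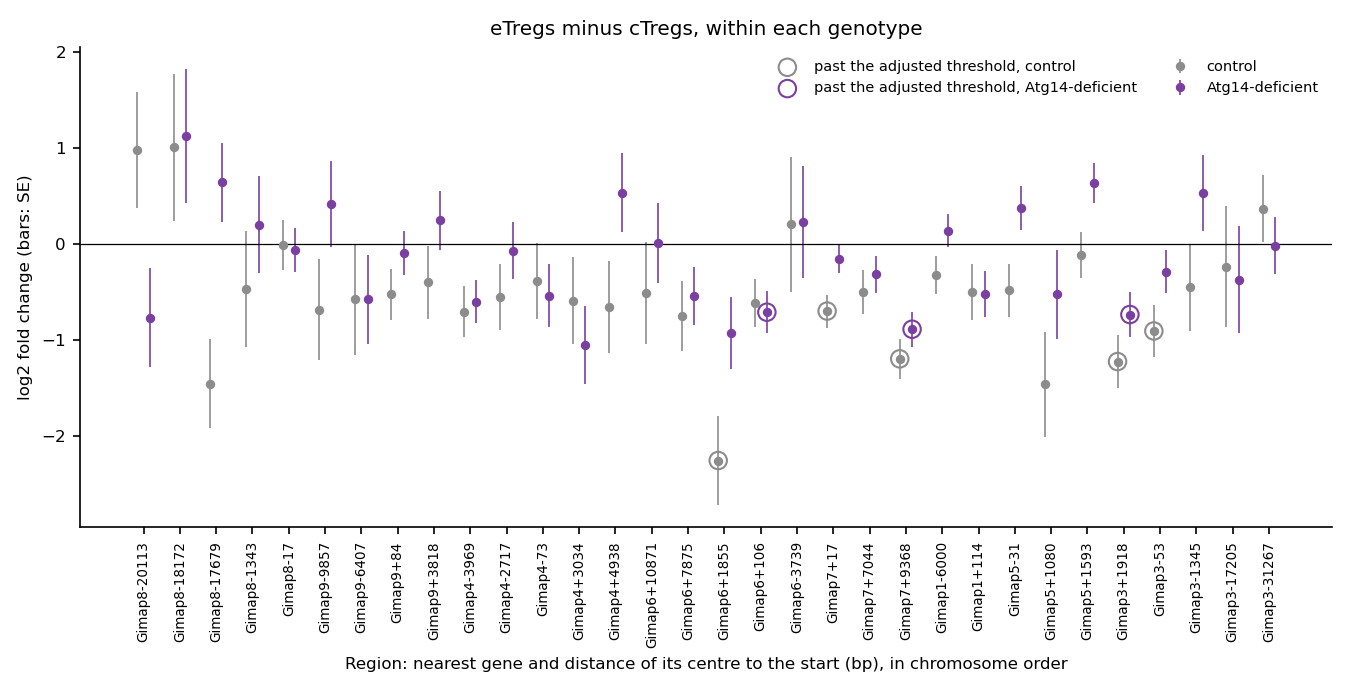
Log2 fold change of eTregs minus cTregs (y axis, error bars of 1 SE) for each of the 32 tested Gimap regions in chromosome order (x axis), in control (grey) and Atg14-deficient (purple) cells, with rings around regions past the adjusted threshold. In controls 28 of 32 points lie below 0 and 5 are ringed, and in Atg14-deficient cells 20 lie below 0 and 3 are ringed.

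Between the genotypes in eTregs, no Gimap region passed the adjusted threshold. The log2 fold change lay above 0 in 28 of 32 regions, with a median of 0.64 against 0.06 over all tested regions. By edgeR 0 of 32 passed the adjusted threshold, which 0.0228% of all tested regions did, and DESeq2 also called 0. At the unadjusted threshold 16 lay higher and 0 lower, against 4.59% of all tested regions higher and 1.77% lower. By DESeq2 these counts were 14 higher and 0 lower. In 11 regions all 4 Atg14-deficient libraries lay above all 3 control libraries, against 4.97% of all tested regions. The count of 16 rested partly on 1 library, since 8 passed the threshold without control eTreg replicate 1, whose summed CPM was the lowest of all. Without control eTreg replicate 3, 1 region passed the adjusted threshold, the Gimap6 intron described below. The smallest adjusted p was 0.292, at the Gimap5 start. Of all regions past the unadjusted threshold in eTregs 72.2% lay higher, which became 60.1% with TMM scaling and 55.8% with loess offsets, and the Gimap regions past it were then 14 and 13 higher and 0 lower.

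The cTreg marker promoters moved with this comparison. They summed to 16.9, 23.6 and 22.4 CPM in control eTregs and 39.9, 40.2, 33.1 and 32.9 CPM in Atg14-deficient eTregs, a ratio of 1.74 with all Atg14-deficient libraries above the controls, beside 1.53 for the Gimap block. Of the 3 genes, Ccr7 and Satb1 did not overlap between the genotypes and Tcf7 did. The 1 B cell marker region, at the Cd22 promoter, had a mean of 2.66 CPM in control and 0.877 CPM in Atg14-deficient eTregs, and all Atg14-deficient libraries lay below the controls. The promoters of the eTreg markers overlapped between the genotypes (ratio of 1.12). Of the Treg markers, the Ikzf2 promoter had a mean of 34.6 CPM in control and 49.0 CPM in Atg14-deficient eTregs without overlap, and those of Il2ra and Ctla4 overlapped. The Cd8b1 promoter (4.35 and 4.94 CPM) and the Klrb1c promoter (1.98 and 3.31 CPM) overlapped as well. Their part in the Gimap result was not tested.

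In cTregs the median difference between genotypes was smaller. Values above 0 were found in 24 of 32 regions, with a median of 0.21 against 0.03 over all tested regions. By edgeR 0 of 32 passed the adjusted threshold (0.0163% of all tested regions did), and DESeq2 called 0 as well. At the unadjusted threshold 4 regions lay higher, against 1.99% of all tested regions, and 1 lower, against 1.35%, the same counts as by DESeq2. Of all regions past it 59.7% lay higher, and 47.6% with loess offsets, where the Gimap counts were again 4 and 1. In 4 regions all Atg14-deficient cTreg libraries lay above all control cTreg libraries, against 3.05% of all tested regions. In 1 region, 17679 bp before Gimap8, they all lay below, as they did in 1502 of the 61366 tested regions. The 4 regions past the unadjusted threshold were near Gimap4 (2 of them), over the Gimap1 start and 31267 bp before Gimap3, and 2 passed it without control cTreg replicate 3 or Atg14-deficient cTreg replicate 1. The Treg marker promoters summed to 114 CPM in control and 131 CPM in Atg14-deficient cTregs, a ratio of 1.15 without overlap beside 1.18 with overlap for the Gimap block, and each of Il2ra, Ikzf2 and Ctla4 alone overlapped. The promoters of the cTreg markers (ratio of 1.12) and eTreg markers (1.05), of Cd22, Cd8b1 and Klrb1c overlapped too. Their part in these values was not tested.

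Whether the genotype difference was larger in eTregs than in cTregs was tested by the interaction of both factors, which is also the test of whether the difference between states depends on genotype. It lay above 0 in 24 of 32 regions, with a median of 0.45 on the log2 scale against 0.03 over all tested regions. By edgeR 0 of 32 regions passed the adjusted threshold, as did 0.00% of all tested regions, and DESeq2 called 0. At the unadjusted threshold 5 lay higher, against 1.90% of all tested regions, and 1 lower, against 1.14% (5 and 1 by DESeq2). Without control cTreg replicate 1 or Atg14-deficient cTreg replicate 2 the count higher was 3, and without control eTreg replicate 1 it was 2. The 5 were the region over the Gimap5 start, the Gimap5 intron, the Gimap7 start, the Gimap6 intron and the region 17679 bp before Gimap8. The larger median in eTregs is therefore a description, and no region was shown to differ between the states in its response to Atg14 loss.

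**Figure D4:**
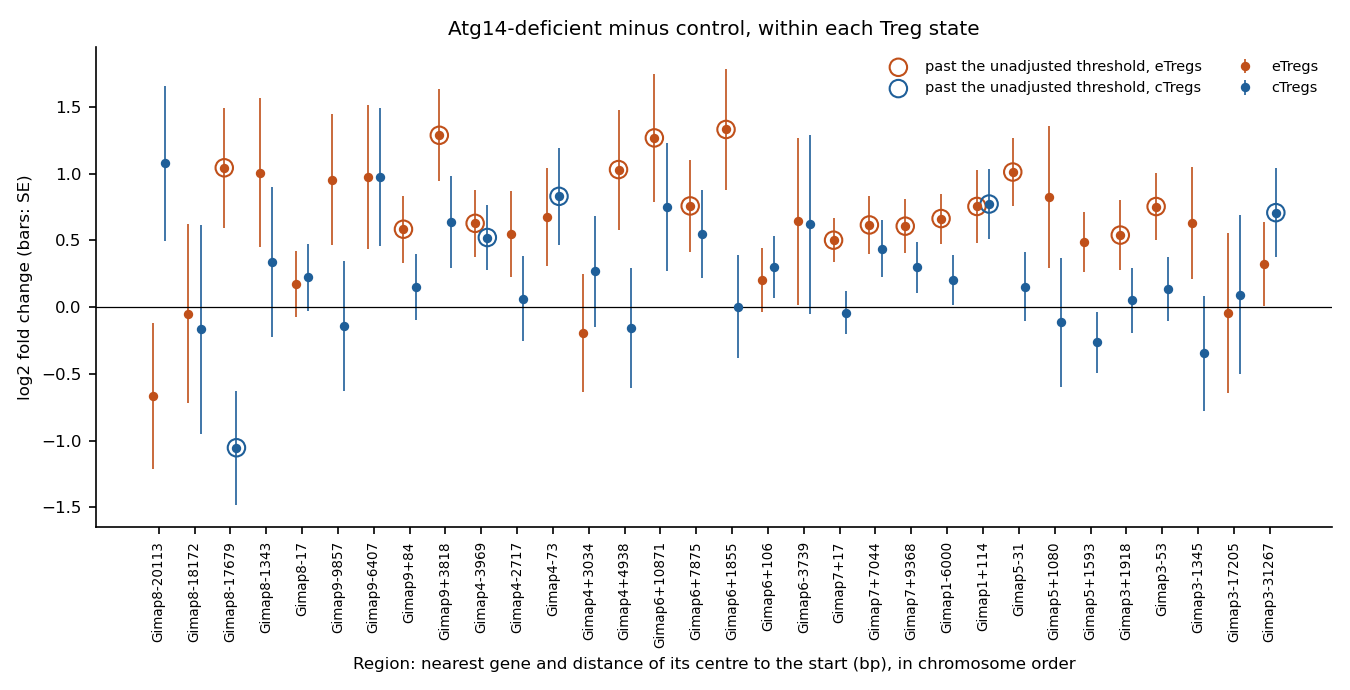
Log2 fold change of Atg14-deficient minus control cells (y axis, error bars of 1 SE) for each of the 32 tested Gimap regions in chromosome order (x axis), in eTregs (orange) and cTregs (blue), with rings around regions past the unadjusted threshold. In eTregs 28 of 32 points lie above 0 and 16 are ringed, in cTregs 24 lie above 0 and 5 are ringed, and none passed the adjusted threshold.

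The genes are described below in groups, first those linked to survival. Gimap5 is a lysosomal GTPase without which peripheral T cells are lost. The region over its start (chr6:48745991-48746342) held 7.16, 11.8 and 12.4 CPM in control eTregs and 20.4, 21.3, 21.2 and 22.9 CPM in Atg14-deficient eTregs. All Atg14-deficient libraries lay above all controls. This difference was 1.01 (SE 0.26) on the log2 scale, with an unadjusted p of 0.000457 and an adjusted p of 0.292 by edgeR. In cTregs the same region held 17.4, 11.5 and 16.1 CPM in controls and 22.3, 15.6, 14.5 and 14.5 CPM in Atg14-deficient cells, and the genotypes overlapped (0.15 (SE 0.26)). Atg14-deficient eTregs thus had the highest mean of the 4 groups at this start. The interaction was 0.86 (SE 0.36) on the log2 scale, with an unadjusted p of 0.0241 and an adjusted p of 1.00 (edgeR).

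A further 2 regions lay in a Gimap5 intron. The one 1593 bp into the gene (chr6:48747541-48748039) held 23.7, 25.6 and 22.3 CPM in control cTregs, 23.5, 19.5, 13.9 and 23.4 CPM in Atg14-deficient cTregs, 21.5, 26.5 and 18.4 CPM in control eTregs and 28.5, 34.3, 22.5 and 38.5 CPM in Atg14-deficient eTregs. Its highest values were in Atg14-deficient eTregs, and these overlapped with each of the other groups. Between the states of Atg14-deficient cells the log2 fold change was 0.63 (SE 0.21) with an adjusted p of 0.0530 by edgeR, the only region of the block that lay higher in eTregs at the unadjusted threshold. This rise was called by DESeq2, with either replicate block, with at least 10 counts in every library, and without Atg14-deficient cTreg replicate 4 or eTreg replicate 3. The region 1080 bp into the gene was low, with means between 1.77 and 5.12 CPM, and passed the unadjusted threshold between the states of controls (-1.46 (SE 0.55)).

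Gimap3 is the closest relative of Gimap5, and both were found to bind proteins of the Bcl-2 family. The intronic region 1918 bp into the gene (chr6:48768500-48769367) held 28.1, 20.6 and 34.3 CPM in control cTregs and 9.76, 12.6 and 12.4 CPM in control eTregs. The states did not overlap, and the region fell by 1.23 on the log2 scale (SE 0.27, adjusted p = 0.00735, edgeR). In Atg14-deficient cells it fell from 37.0, 29.98, 23.1 and 24.1 CPM to 10.2, 19.2, 18.5 and 20.03 CPM. Every Atg14-deficient eTreg library lay below every cTreg library, with a log2 fold change of -0.74 (SE 0.23) and an adjusted p of 0.0398 by edgeR. The call was lost without Atg14-deficient cTreg replicate 1, 2 or 3, Atg14-deficient eTreg replicate 1, 3 or 4, or control cTreg replicate 1. Between genotypes in eTregs the log2 fold change was 0.54 (SE 0.26), past the unadjusted threshold, with 1 Atg14-deficient library (replicate 1) among the controls.

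The region over the Gimap3 start (chr6:48770660-48771149) held 13.7, 11.3 and 12.6 CPM in control eTregs and 24.0, 19.2, 24.4 and 16.7 CPM in Atg14-deficient eTregs. No overlap remained between the genotypes, and the log2 fold change was 0.75 (SE 0.25) with an adjusted p of 0.457 by edgeR. Control cTregs, at 27.9, 23.2 and 18.7 CPM, lay above all control eTregs. This fall between the states was -0.91 (SE 0.27) with an adjusted p of 0.0405 (edgeR), and the call was lost without control cTreg replicate 1 or 2 or any of the 3 control eTreg libraries. Of the 3 other regions nearest Gimap3, the one 31267 bp before the start held 7.82, 8.14 and 6.24 CPM in control and 16.0, 7.01, 13.2 and 12.8 CPM in Atg14-deficient cTregs (0.71 (SE 0.33), adjusted p = 1.00, edgeR). Those 1345 and 17205 bp before it passed no threshold.

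Gimap1 is needed by mature T and B cells for their survival. The region over its start, centred in its first intron (chr6:48738886-48739436), held 15.9, 12.0 and 11.2 CPM in control cTregs and 20.6, 20.6, 28.1 and 19.9 CPM in Atg14-deficient cTregs. All Atg14-deficient cTreg libraries lay above all controls, with a log2 fold change of 0.77 (SE 0.26), an unadjusted p of 0.00670 and an adjusted p of 1.00 by edgeR. In eTregs it held 6.51, 11.6 and 9.37 CPM in controls and 14.4, 18.4, 18.5 and 11.3 CPM in Atg14-deficient cells. The eTreg log2 fold change of 0.75 (SE 0.27) was of like size, and 1 Atg14-deficient library (replicate 4) lay below the highest control.

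The intergenic region 6000 bp before Gimap1 (chr6:48732751-48733343) had the highest mean count of the block, 208 per library, and its centre carries the RUNX letters shown in capitals. It held 44.9, 53.5 and 36.4 CPM in control eTregs and 68.9, 43.9, 83.1 and 85.3 CPM in Atg14-deficient eTregs. Of the 4 Atg14-deficient libraries 3 lay above all controls and replicate 2 lay below 2 of them. This difference was 0.66 (SE 0.19) on the log2 scale, with an unadjusted p of 0.00150 and an adjusted p of 0.343 by edgeR. In cTregs it held 66.5, 57.9 and 42.4 CPM in controls and 61.3, 58.4, 73.3 and 64.2 CPM in Atg14-deficient cells, which overlapped. Between the states it passed no threshold in either genotype.

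**Figure D5:**
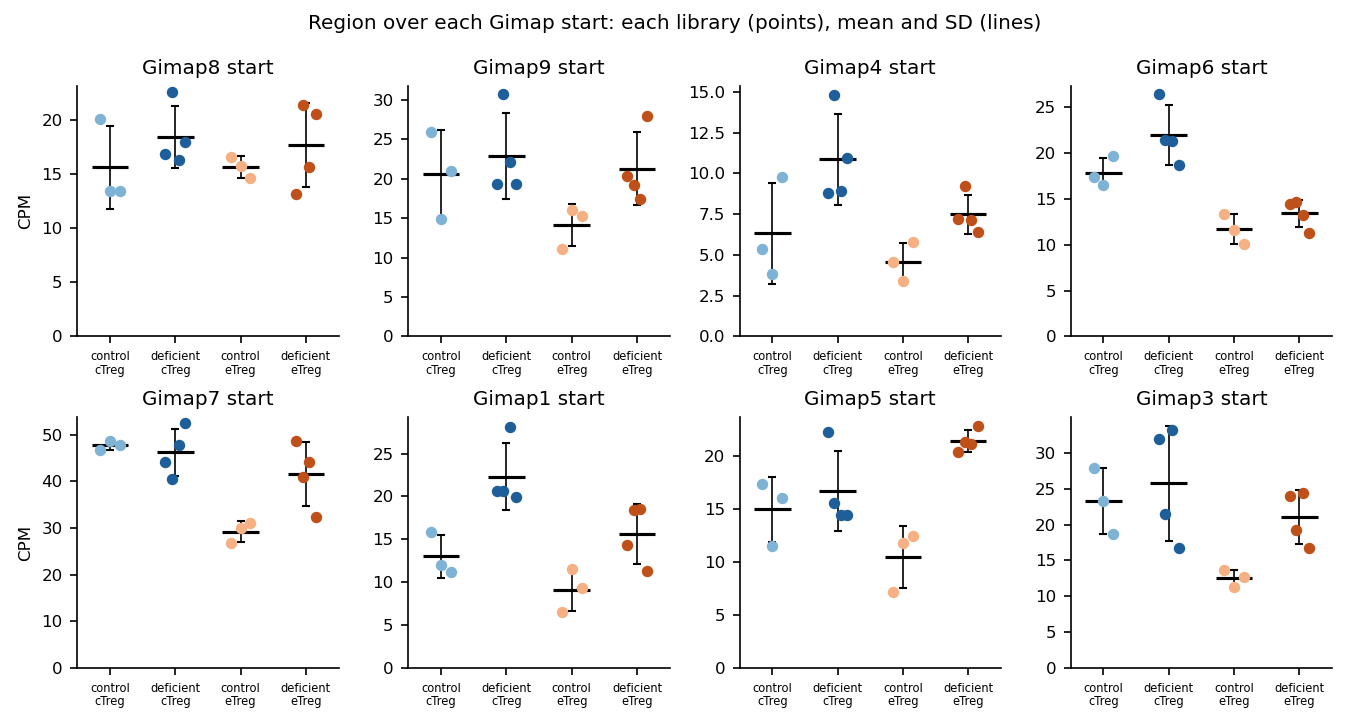
CPM (y axis) of the region over the start of each of the 8 Gimap genes, in each library (points) of the 4 groups (x axis), with the mean and 1 SD as black lines. At the Gimap5, Gimap3, Gimap7, Gimap9 and Gimap4 starts all Atg14-deficient eTreg libraries lie above all control eTreg libraries, and at the Gimap8 start the groups overlap.

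Gimap4 differs from these in that it was found to speed the death of T cells once apoptosis has begun. The region over its start (chr6:48684400-48684611) was the lowest of the 8 start regions, with a mean count of 24.6 per library. It held 4.55, 3.41 and 5.77 CPM in control eTregs and 7.19, 9.20, 7.15 and 6.42 CPM in Atg14-deficient eTregs, without overlap but short of the unadjusted threshold (0.68 (SE 0.37), unadjusted p = 0.0761 and adjusted p = 0.672 by edgeR). In cTregs it held 5.38, 3.83 and 9.81 CPM in controls and 8.82, 14.8, 8.94 and 10.9 CPM in Atg14-deficient cells. Control replicate 3 lay among the Atg14-deficient libraries, and the log2 fold change of 0.83 (SE 0.36) passed the unadjusted threshold.

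The region 3969 bp before Gimap4 (chr6:48680435-48680784) had the highest CPM of the 5 nearest this gene. It held 17.6, 23.0 and 13.4 CPM in control cTregs, 31.5, 21.4, 26.3 and 25.7 CPM in Atg14-deficient cTregs, 8.13, 12.1 and 12.8 CPM in control eTregs and 13.8, 19.2, 19.9 and 16.2 CPM in Atg14-deficient eTregs. It passed the unadjusted threshold in both comparisons of states and both of genotypes, with log2 fold changes of -0.71 and -0.60 between states in control and Atg14-deficient cells, and of 0.63 and 0.52 between genotypes in eTregs and cTregs. None of the 4 passed the adjusted threshold (lowest adjusted p of 0.0802, edgeR), though the fall between states of Atg14-deficient cells was called with the replicate number within each genotype as a block. Of 2 regions in a Gimap4 intron, the one 3034 bp into the gene lay lower in Atg14-deficient eTregs than cTregs (-1.05 (SE 0.40), adjusted p = 0.0878, edgeR). The one 4938 bp into it held 3.25, 2.10 and 3.24 CPM in control and 5.39, 7.53, 2.91 and 7.96 CPM in Atg14-deficient eTregs (1.03 (SE 0.45), adjusted p = 0.573, edgeR). The region 2717 bp before the gene passed no threshold.

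Gimap6 binds a GABARAP protein of the autophagy machinery, and T cells are fewer without it. Of the 8 genes it had the lowest ratio of summed CPM between states, 0.522 in control and 0.683 in Atg14-deficient cells. The intronic region 1855 bp into the gene (chr6:48706113-48706666) held 15.9, 10.1 and 16.9 CPM in control cTregs and 1.30, 0.525 and 6.13 CPM in control eTregs. It had the largest fall of the block, -2.26 (SE 0.46) on the log2 scale with an adjusted p of 0.00431 by edgeR. The 3 control eTreg counts behind it were 4, 2 and 34 reads, so replicate 3 stood apart from the other 2. With 1 library left out the log2 fold change ran from -3.95 (without control eTreg replicate 3) to -1.80 (without control eTreg replicate 2), and the call held. Atg14-deficient cells held 15.5, 12.5, 16.8 and 11.9 CPM in cTregs and 5.99, 10.04, 6.35 and 7.71 CPM in eTregs. Between genotypes in eTregs the log2 fold change was 1.33 (SE 0.45) with an adjusted p of 0.457 by edgeR. With 1 library left out it ran from 0.87 to 3.03, the latter without control eTreg replicate 3 (adjusted p = 0.0310, edgeR).

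The region over the Gimap6 start, centred in its coding exon (chr6:48707842-48708435), held 26.4, 21.4, 21.3 and 18.6 CPM in Atg14-deficient cTregs and 14.4, 14.6, 13.2 and 11.3 CPM in Atg14-deficient eTregs. It fell without overlap, by 0.71 on the log2 scale (SE 0.22, adjusted p = 0.0346, edgeR). This call was lost without Atg14-deficient cTreg replicate 1, 2 or 3 or Atg14-deficient eTreg replicate 1, 3 or 4. Control cells held 17.4, 16.5 and 19.6 CPM in cTregs and 13.3, 11.6 and 10.1 CPM in eTregs, also without overlap (-0.61 (SE 0.25), adjusted p = 0.159, edgeR). The genotypes overlapped in both states at this start, where the fitted genotype difference was 0.20 on the log2 scale for eTregs and 0.30 for cTregs. Beyond the 3' end of Gimap6, the regions centred 7875 and 10871 bp from its start passed the unadjusted threshold between the genotypes in eTregs, with log2 fold changes of 0.76 and 1.27. The second of these held 0.651, 2.62 and 2.52 CPM in control and 5.69, 5.02, 5.03 and 3.85 CPM in Atg14-deficient eTregs, without overlap, and the first overlapped, at 2.60, 6.56 and 5.23 CPM in control eTregs and 7.19, 6.28, 10.1 and 9.25 CPM in those without Atg14. The region 3739 bp before Gimap6 passed no threshold.

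Gimap7 hydrolyses GTP as a dimer and can stimulate other members of the family. The region over its start (chr6:48718415-48718861) held 46.7, 48.6 and 47.7 CPM in control cTregs and 26.7, 29.9 and 31.0 CPM in control eTregs. The states did not overlap, and it fell by 0.70 on the log2 scale (SE 0.17, adjusted p = 0.0149, edgeR), a call lost without replicate 1 of either group. In Atg14-deficient cells the states overlapped, at 44.1, 40.5, 47.9 and 52.4 CPM in cTregs and 48.5, 41.0, 44.2 and 32.4 CPM in eTregs. They differed by -0.16 (SE 0.15) on the log2 scale, and the interaction of 0.54 (SE 0.23) had an unadjusted p of 0.0234 and an adjusted p of 1.00 (edgeR). Between genotypes in eTregs all Atg14-deficient libraries lay above all controls (0.50 (SE 0.16), adjusted p = 0.433, edgeR), and in cTregs the log2 fold change was -0.04 (SE 0.16).

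Both intergenic regions beyond Gimap7 also had all Atg14-deficient eTreg libraries above all controls. The one 7044 bp from the start (chr6:48725444-48725886) held 24.4, 17.8 and 27.4 CPM in control and 28.2, 31.8, 40.8 and 41.6 CPM in Atg14-deficient eTregs, with a log2 fold change of 0.62 (SE 0.22) and an adjusted p of 0.468 by edgeR. The one 9368 bp from it, given above, had a log2 fold change of 0.61 (SE 0.20) (adjusted p = 0.457, edgeR). Gimap7 was thus the 1 gene of the 8 whose regions all lay apart between the genotypes in eTregs.

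The regions nearest Gimap9 summed to 20.2, 28.6 and 25.4 CPM in control and 43.8, 47.3, 31.8 and 52.6 CPM in Atg14-deficient eTregs, a ratio of 1.77, the highest of the 8 genes. The largest log2 fold change was in the region 3818 bp beyond its start (chr6:48679823-48680083), which held 3.25, 5.77 and 4.69 CPM in control and 12.0, 11.7, 10.1 and 11.6 CPM in Atg14-deficient eTregs. The genotypes did not overlap, with a log2 fold change of 1.29 (SE 0.35), an unadjusted p of 0.000839 and an adjusted p of 0.305 by edgeR. The region over the Gimap9 start, in its noncoding exon (chr6:48675902-48676537), held 11.1, 16.0 and 15.3 CPM in control and 20.4, 19.2, 17.5 and 28.0 CPM in Atg14-deficient eTregs. These did not overlap either (0.58 (SE 0.25), adjusted p = 0.569, edgeR), while in cTregs the genotypes overlapped (0.15 (SE 0.25)). The regions 6407 and 9857 bp before the gene passed no threshold.

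At Gimap8, the first gene of the block, the summed CPM of the nearest regions overlapped in all 4 comparisons, as it did at Gimap1, and the ratio of genotypes in eTregs was the lowest of the 8 genes (1.24). The region over its start (chr6:48646980-48647359) held 20.04, 13.4 and 13.4 CPM in control cTregs, 16.8, 22.6, 16.3 and 18.0 CPM in Atg14-deficient cTregs, 16.6, 15.8 and 14.6 CPM in control eTregs and 13.2, 21.3, 15.6 and 20.6 CPM in Atg14-deficient eTregs. The groups overlapped in all comparisons. The log2 fold change was -0.01 (SE 0.26) between the states of controls, which changed sign between settings, and 0.17 (SE 0.24) between the genotypes in eTregs.

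Far before Gimap8, 2 low regions went opposite ways. The one 17679 bp before the start held 9.29, 5.74 and 4.90 CPM in control cTregs, 2.52, 3.12, 4.21 and 2.89 CPM in Atg14-deficient cTregs, 3.25, 1.57 and 2.52 CPM in control eTregs and 4.20, 5.02, 4.24 and 6.68 CPM in Atg14-deficient eTregs. Without Atg14 it lay lower in cTregs and higher in eTregs, without overlap in both, and the interaction was 2.10 (SE 0.62) on the log2 scale (unadjusted p = 0.00203, adjusted p = 1.00, edgeR). The region 20113 bp before the start had an interaction of -1.74 (SE 0.80) (unadjusted p = 0.0366, adjusted p = 1.00, edgeR), with a mean count of only 10.3 per library. It held 2.69, 1.20 and 1.78 CPM in control cTregs, 4.20, 3.89, 4.21 and 3.85 CPM in Atg14-deficient cTregs, 5.86, 3.15 and 2.52 CPM in control eTregs and 0.599, 2.51, 2.65 and 3.60 CPM in eTregs without Atg14. The regions 1343 and 18172 bp before the start passed no threshold, and the latter held 1.96, 1.44 and 0.892 CPM in control cTregs and 3.25, 2.89 and 2.88 CPM in control eTregs.

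Among themselves, the 32 regions moved together only loosely. Over the 496 pairs of regions, the median Pearson r of log2 CPM across the 14 libraries was 0.29, and it was 0.04 after the mean of each group had been taken away. These values are a description, and all points of a library share its depth.

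The genes on either side of the block were compared to see how far the pattern reached. The 5 regions nearest Lrrc61, Rarres2, Repin1 and Zfp775, on the Gimap8 side, summed to 60.8, 78.5 and 94.6 CPM in control eTregs and to 84.8, 92.9, 93.7 and 84.5 CPM in those without Atg14, which overlapped (ratio of 1.14). The 3 regions nearest Tmem176a, Tmem176b and Aoc1, on the Gimap3 side, summed to 4.55, 9.97 and 7.21 CPM in control eTregs and to 14.1, 6.69, 10.8 and 15.4 CPM in those without Atg14, and these overlapped too, at a ratio of 1.62 beside 1.53 for the block. Between the states of controls the Gimap8 side overlapped (ratio of 0.848). The Gimap3 side went from 12.7, 10.5 and 16.1 CPM in control cTregs to the control eTreg values just given without overlap, a ratio of 0.553 beside 0.665 for the block. Between states without Atg14 the Gimap3 side had a ratio of 1.43 (0.865 for the block), and between genotypes in cTregs one of 0.629 (1.18 for the block). In these comparisons the Gimap8 side had ratios of 1.06 and 0.916, and both sides overlapped. None of the 6 tested flanking regions passed either threshold in any comparison. With 6 regions, some of them low, a difference of the block's size was not tested against them.

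A list of 11 other genes of T cell quiescence, homing and survival (Il7r, Bcl2, Klf2, S1pr1, Ccr7, Tcf7, Lef1, Foxo1, Foxp1, Satb1 and Bach2) had 342 tested regions. Between the states of controls 62 of them fell and 2 rose past the adjusted threshold, against 3.29% and 2.01% of all tested regions, with a median log2 fold change of -0.66 against -0.01. Between the genotypes in eTregs 0 passed the adjusted threshold by edgeR, and 36 lay higher and 1 lower at the unadjusted threshold, against 4.59% and 1.77% of all tested regions, with a median of 0.28 against 0.06. Taking for each gene its region of highest CPM, the log2 fold change between genotypes in eTregs lay above 0 for 6 genes and below 0 for 5 (Lef1, Foxo1, Foxp1, Satb1 and Bach2), from -0.13 at Satb1 to 0.78 at Ccr7, and none passed the adjusted threshold. The promoter region of Ccr7, the lymph node homing receptor, had means of 11.1 CPM in control and 19.5 CPM in Atg14-deficient eTregs (adjusted p = 0.475, edgeR). The highest region nearest Klf2, a transcription factor that keeps T cells quiescent, had means of 86.2 and 112 CPM (adjusted p = 0.542, edgeR). That nearest Satb1, a chromatin organiser of T cells, had means of 102 and 93.0 CPM (adjusted p = 0.875, edgeR).

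Over the 14 libraries, the promoter regions whose log2 CPM followed the summed Gimap CPM most closely were those of Cd28 (r = 0.87), Utrn (r = 0.87), S1pr1 (r = 0.87), Smad7 (r = 0.87) and Plin3 (r = 0.84), among 7965 promoters with a median r of -0.14. The Cd28 promoter had means of 53.5 CPM in control cTregs, 61.3 CPM in Atg14-deficient cTregs, 32.5 CPM in control eTregs and 47.6 CPM in Atg14-deficient eTregs. These 5 were chosen for their likeness, over libraries that fall into 4 groups and share the same depths.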

How the data were processed

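Bulk ATAC-seq libraries of cTregs and eTregs were assigned to their 4 groups by the labels. Per the labels, the methods and the submitters' processing notes, the authors trimmed reads (cutadapt 1.9 in the notes), aligned them, removed duplicates with Picard, corrected read ends for the transposase offset, selected nucleosome-free fragments, called peaks per library with MACS2 2.1.0.20150603, merged those present in 50% or more of a genotype's replicates, and counted reads per merged region. The deposited values are these raw counts, without normalization. Even numbers made up 81.97% of them, and whether both reads of a pair were counted is not given in the sources used here. The methods name an older genome build than the notes (mm10, GRCm38). The coordinates were checked to lie within GRCm38, which was used throughout with RefSeq's annotation and sequences (GRCm38.p6).

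Regions were filtered by edgeR's filterByExpr and fitted in 1 quasi-likelihood model with library totals as offsets (R 4.3.3, edgeR 4.0.16, limma 3.58.1), with Benjamini-Hochberg adjustment over all 61366 tested regions, and thresholds of 0.05 for p and 0.5 for the log2 fold change. DESeq2 1.42.0, TMM, loess offsets, other filters, fits of the compared groups, replicate blocks and each library left out were the alternatives. Tables, motifs and plots were made in Python 3.11.15, and the fitting was tested on simulated data. The study's methods give 3 control and 4 Atg14-deficient chimeras per state, and the labels tie no library to a mouse. Total counts of 2242983 to 5548189 gave Gimap regions mean counts of 6.29 to 208 per library, so the low regions are imprecise.

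Regions given by library were those covering a start, those with the highest CPM per gene, and those past the adjusted threshold in any comparison or the unadjusted one between genotypes or in the interaction. The region 18172 bp before Gimap8 was added after its values were seen. The members, gene lists and motifs were chosen with earlier results of these data known, and 1 gene of the lists is not reported here. Expression of the genes was not analysed here.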

Additional observations from a re-analysis of the deposited data

Results flagged for a closer look

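In the groups of 4 libraries, 50 sets of values were checked for a library whose gap to the nearest other exceeded Dixon's limit as a share of the group's range, and 4 stood out, where chance gives about 1 in 20. Atg14-deficient cTreg replicate 1 was high at the region 7875 bp from the Gimap6 start (13.9 CPM, the next 11.7 CPM) and at the Gimap5 start (22.3 CPM, the next 15.6 CPM). Atg14-deficient cTreg replicate 3 was high at the Gimap1 start (28.1 CPM, the next 20.6 CPM), where all Atg14-deficient cTregs lay above the controls. Atg14-deficient eTreg replicate 1 was low in the Gimap3 intron (10.2 CPM, the next 18.5 CPM). Groups of 3 were not checked in this way.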

How the results depend on the processing

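In control cells the 5 falls between states kept their count under TMM, loess offsets, DESeq2, no filter, a fit of both groups alone, the replicate number as replicate block (5) and that number within each genotype as replicate block (5). Leaving out 1 library gave 3 to 5 calls, and 8 to 11 lower regions at the unadjusted threshold, and with at least 10 counts in every library, which left 17 Gimap regions, 6. In Atg14-deficient cells the 3 calls became 4 under DESeq2, with the replicate number as replicate block and with at least 10 counts in every library. The call added in these was the rise in the Gimap5 intron. A fit of both groups alone also gave 4, adding the fall in the Gimap6 intron. With the number within each genotype as replicate block there were 6, adding both of these and a fall 3969 bp before Gimap4. With 1 library left out there were 1 to 4 (5 to 8 lower at the unadjusted threshold). Between genotypes in eTregs the calls were 0 under every alternative except leaving out a library (0 to 1), and the higher regions at the unadjusted threshold were 12 with the replicate block and 8 to 16 with 1 library left out. In cTregs the calls stayed 0, with 2 to 4 higher at the unadjusted threshold with 1 library left out. For the interaction the calls stayed 0, with 3 higher at the unadjusted threshold with at least 10 counts in every library and 2 to 6 with 1 library left out. The causes were not tested.

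The eTreg and cTreg libraries that carry 1 number within a genotype had deviations that correlated by 0.05 to 0.24 over 7 pairs (median of 0.19), against -0.20 to 0.10 (median of -0.05) over 18 pairs of unlike number within a genotype. With 1 control pair at 0.05, under the limit of 0.1, the numbers were not taken as pairs. The other pairs of like number lay from 0.12 to 0.24, above every pair of unlike number within a genotype. The main fit thus treated the libraries as independent, and the counts with these numbers as blocks are given above. The log2 ratios of summed CPM moved by less than the spread between libraries under TMM, over promoter regions alone and with each library left out. The log2 fold change at the Gimap8 start between control states turned to 0.0082 with loess offsets, 0.0135 with DESeq2 and 0.0218 with the number within each genotype as replicate block, and ran from -0.12 to 0.22 with 1 library left out (0.04 without control eTreg replicate 3, 0.22 without control cTreg replicate 1). That at the Gimap4 start ran from -0.66 to 0.0103 (without control cTreg replicate 3). Of 1121 values for 53 named log2 fold changes under the alternatives, 1084 kept direction and call, 20 lost the call, 11 gained it and 6 changed sign. Depth limits the low regions, and 3 or 4 libraries a group limit all.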
